A study of Homo sapiens with 12 samples.

Results

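BJ cells are an established fibroblast line from human foreskin, and their gene expression was compared between cells in which wild-type EZH2 was re-expressed and control cells. Arrays were chosen by their titles: 3 of EZH2 re-expression and 3 of si-Control, so 6 of the 12 arrays of the study. In the si-Control group, a control lentivirus was combined with a control siRNA. In the EZH2 re-expression group, a lentivirus carrying an EZH2 that resists RNA interference was combined with an siRNA against EZH2. In all groups the virus was given for 72 h and the siRNA then for 60 h, in medium with serum. The insert of the virus and the siRNA changed together, so the effects of more EZH2, of the siRNA and of the viral insert cannot be told apart in this comparison. The other 6 arrays, 3 of si-EZH2 (control virus with the siRNA against EZH2) and 3 of T350A re-expression (a resistant EZH2 with alanine in place of a threonine, with the same siRNA), entered the estimate of the spread. Their values against the same 3 si-Control arrays are given beside some results, and since the controls are shared, these differences are not independent of one another.

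EZH2 is the catalytic subunit of Polycomb repressive complex 2 (PRC2), which methylates lysine 27 of histone H3 and keeps genes of other lineages silent. In fibroblasts EZH2 is abundant in dividing cells, falls as cells stop dividing, and is known for holding the INK4/ARF locus (CDKN2A) in check. Its partners EED and SUZ12 are required for activity, while JARID2, AEBP2, PHF1, MTF2 and PHF19 guide the complex to DNA.

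All 12 arrays were on 1 chip. Between 20824 and 21910 of 47231 probes were detected on the 6 arrays, and limma tested the 23313 probes whose detection p was under 0.05 on 3 or more of all 12. All values below are log2 intensities after background correction and quantile normalization, differences are EZH2 re-expression minus si-Control with limma's SE, and "called" means an adjusted p under 0.05. Nothing in the labels states that the replicates were separate cultures, so the spread behind each p-value is that between these samples and may be technical. In bulk RNA, a change in the level per cell and a change in the share of cells that make a transcript cannot be told apart. Fibroblast markers were bright: all 12 listed were tested and 0 were called, and 10 of the 12 differences were below 0 with a median of -0.17. The detection filter was passed by 2 of 10 endothelial markers with a probe and by 4 of 11 leukocyte markers. The endothelial PECAM1, VWF, CDH5 and KDR and the leukocyte PTPRC and CD3E were among those that did not pass. CD68, also a leukocyte marker, was detected on every array, at a mean of 11.08 in si-Control and 11.04 with re-expression. Of the other cell type markers, 1 of 6 epithelial genes tested was called (KRT19, by 0.32 ± 0.091, adjusted p = 0.0461) and 1 of 4 leukocyte genes (CD14, by 0.51 ± 0.11, adjusted p = 0.0109). KRT19 lost its call without any 1 of the 12 arrays (adjusted p from 0.0511 to 0.148), and CD14 lost it without si-Control replicate 1 or EZH2 re-expression replicate 3 (highest adjusted p 0.056) and when chip section was added to the fit as a covariate (adjusted p = 0.0917), here called the section-adjusted fit. None of the 2 endothelial, 2 melanocyte, 3 muscle and 4 adipocyte markers tested was called by limma.

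EZH2 itself was read by 3 probes, and 2 of them were far above the control level. The si-Control arrays read 5.85, 5.41 and 5.62 on probe ILMN_2364529, against 8.5, 8.46 and 8.47 with EZH2 re-expression, a rise of 2.84 ± 0.12 (7.18-fold, adjusted p = 2.8e-09). Probe ILMN_1652913 read 6.43, 6.13 and 6.41 against 8.46, 8.62 and 8.57, a rise of 2.22 ± 0.13 (4.67-fold, adjusted p = 9.56e-08). Probe ILMN_1708105 went the other way: it read 6.68, 6.96 and 6.72 in si-Control and 5.85, 5.98 and 5.68 with re-expression, so that it fell by 0.95 ± 0.13 (1.93-fold, adjusted p = 0.000598). The groups did not overlap on any of the 3 probes. In si-EZH2 the probe ILMN_1708105 differed by -1.09 from si-Control and in T350A re-expression by -0.87. The positions of the probes on the transcript were not analysed here, so it was not tested whether this probe lies outside the sequence that the virus carries.

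**Figure D1:**
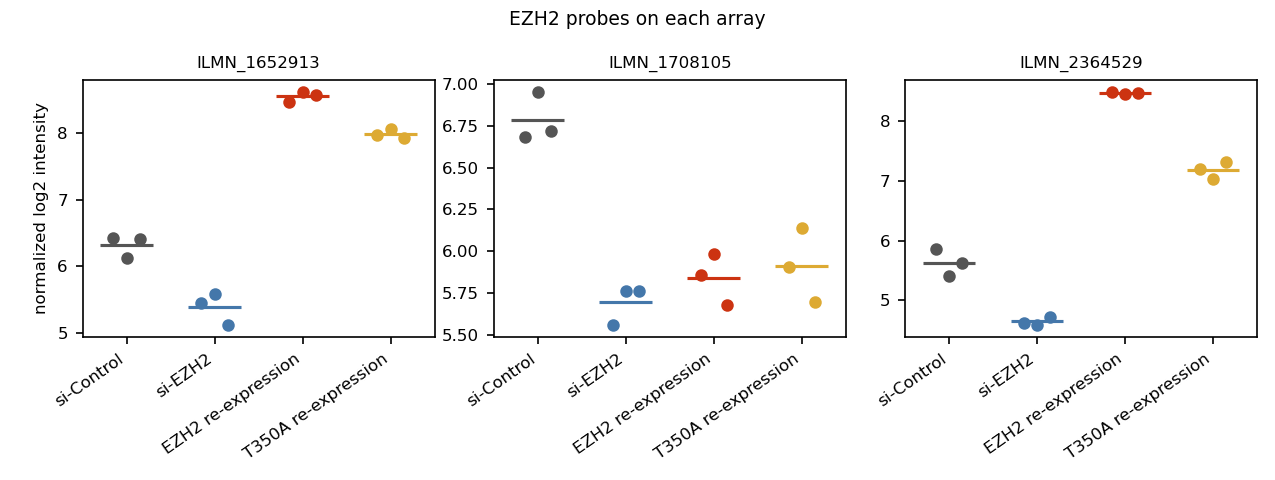
Normalized log2 intensity of the 3 EZH2 probes on each of the 12 arrays (points) with the mean of each group (lines). Levels are comparable within a panel only. With EZH2 re-expression, ILMN_1652913 and ILMN_2364529 lie above every si-Control array, and ILMN_1708105 lies below them, near si-EZH2.

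The other subunits and cofactors of PRC2 did not pass the test. Of 13 tested, EZH2 was called and 12 were not, with differences from -0.19 for PHF1 to 0.22 for JARID2. JARID2 was higher on every re-expression array, but its difference of 0.22 ± 0.11 did not pass (adjusted p = 0.247). EED differed by 0.22 ± 0.12 (adjusted p = 0.288), SUZ12 by 0.09 ± 0.12 (adjusted p = 0.704) and EZH1, the second PRC2 methyltransferase, by -0.13 ± 0.19 (adjusted p = 0.731).

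Across all tested probes, 1688 were called (7.24%): 839 were higher (3.60%) and 849 lower (3.64%) with EZH2 re-expression. Most differences were small. The median size was 0.51 for higher and 0.50 for lower calls, and a change of 1.5-fold or more was called upward for 252 probes (1.08%) and downward for 239 (1.03%). The median over all tested probes was 0.0024. With 1 probe a gene, the brightest, 546 of 12640 genes were called higher (4.32%) and 566 lower (4.48%), and these shares are the background for the gene lists below. Of the 7771 dimmest probes by mean intensity 2.72% were called, against 9.34% of the 7771 in the middle and 9.66% of the 7771 brightest. The 3 arrays of 1 group all lay above those of the other for 3352 probes that were higher (14.4%) and 3306 that were lower (14.2%).

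The number of calls depended on each of the 6 arrays. Leaving out si-Control replicate 1, 2 or 3 gave 842, 1213 or 891 calls, and leaving out EZH2 re-expression replicate 1, 2 or 3 gave 923, 829 or 878. On the chip, the EZH2 re-expression arrays lay in sections I, J and K and the si-Control arrays in sections A, C and F, so section and group largely coincided. In the section-adjusted fit, with section as a linear term, 283 probes were called, 263 of them among the 1688. All 1688 kept their sign, and their differences were at a median of 0.976 of the original, while the covariate by its place in the design raised the SE 1.37-fold. Median scaling in place of quantile normalization moved the median of all probes to -0.065, and then 499 of 2114 calls were higher (23.6%, against 49.7% here).

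**Figure D2:**
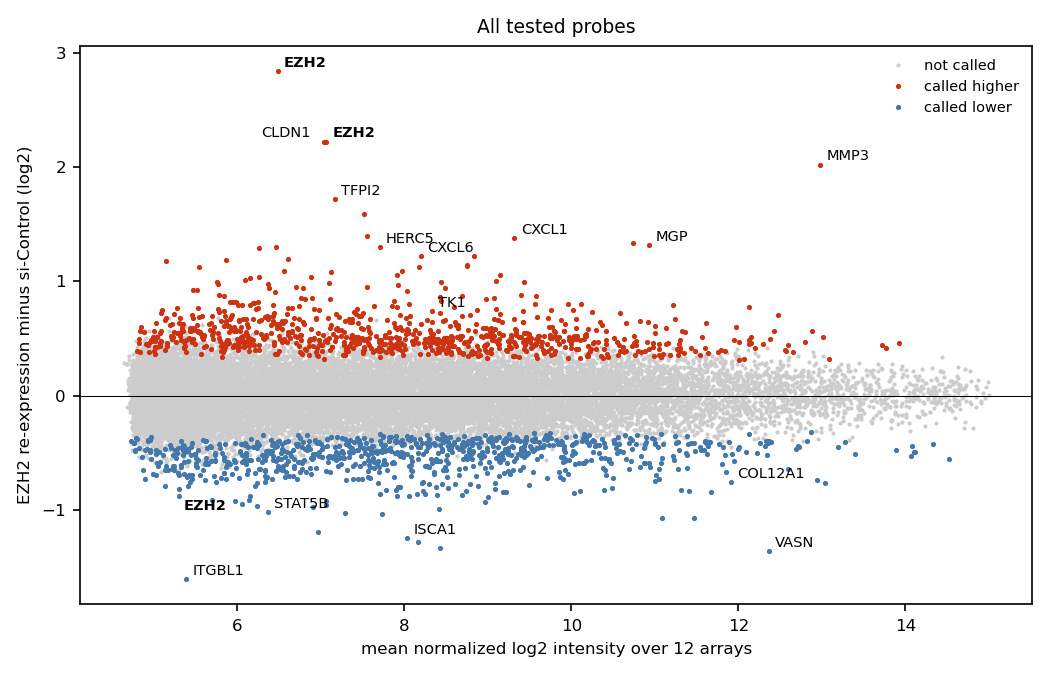
Difference between EZH2 re-expression and si-Control (log2) against mean normalized log2 intensity over 12 arrays, for all 23313 tested probes. The 839 higher calls are red, the 849 lower calls blue and the uncalled probes gray. Called and uncalled probes overlap in the size of their difference. The upper EZH2 probes, CLDN1 and MMP3 reach above 2.

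The largest rises after that of EZH2 were those of CLDN1, MMP3 and TFPI2. CLDN1, the tight junction protein claudin-1, read 5.0, 5.46 and 5.27 in si-Control and 7.49, 7.23 and 7.67 with re-expression, a rise of 2.22 ± 0.13 (4.67-fold, adjusted p = 1.3e-07). MMP3, the matrix protease stromelysin-1, read 11.73, 11.90 and 11.77 against 13.83, 13.78 and 13.86, a rise of 2.02 ± 0.10 (4.06-fold, adjusted p = 1.49e-08). TFPI2, an inhibitor of serine proteases in the matrix, read 6.10, 6.09 and 6.17 against 7.67, 7.87 and 7.99, a rise of 1.72 ± 0.11 (3.30-fold, adjusted p = 3.6e-07). In each of these genes the groups lay more than 1 log2 unit apart at their nearest arrays. In si-EZH2 and T350A re-expression CLDN1 differed from si-Control by 2.74 and 2.21, MMP3 by 1.30 and 1.40, and TFPI2 by 1.25 and 1.20.

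MGP, the matrix Gla protein that inhibits calcification, read 10.04, 9.84 and 9.99 in si-Control and 11.22, 11.42 and 11.19 with re-expression, a rise of 1.32 ± 0.10 (adjusted p = 3.81e-06). VAT1L, a homologue of a vesicle amine transport protein, rose by 1.30 ± 0.17, although its si-Control arrays spread from 5.43 to 6.27. CYFIP2, a regulator of actin through the WAVE complex, rose by 1.22 ± 0.14, and OLR1, the receptor for oxidized low-density lipoprotein, by 1.20 ± 0.12. For these 4 genes, the values for si-EZH2 minus si-Control were 0.97 for MGP, 0.56 for VAT1L, 0.64 for CYFIP2 and 0.45 for OLR1.

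CEACAM1, an adhesion molecule of the carcinoembryonic family, was detected on 0 of 3 si-Control arrays and on 3 of 3 with re-expression. It was at least 1.62-fold higher, with measured values of 4.53, 4.53 and 4.34 against 5.68, 5.49 and 5.76 (adjusted p = 0.00012). Here and below, such a bound sets the bright group's mean against the dimmest signal that counted as detected. The amino acid transporter SLC43A2 rose by 1.19 ± 0.13 and the carbonic anhydrase CA12 by 1.09 ± 0.12. The neuropeptide GAL, detected on 1 of 3 si-Control arrays, rose by 1.13 ± 0.13, and the peptide KISS1, a ligand first known as a suppressor of metastasis, by 1.00 ± 0.12. IL13RA2, the decoy receptor of interleukin-13, rose by 1.05 ± 0.12, the orphan receptor GPRC5A by 1.04 ± 0.12 and the potassium channel KCNH1 by 1.03 ± 0.13. CH25H, which makes 25-hydroxycholesterol, rose by 1.12 ± 0.12.

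The largest measured falls were those of ITGBL1, VASN and ISCA1, of which ITGBL1 lay close to the detection limit with re-expression. VASN, vasorin, a membrane protein that binds TGF-beta, read 13.28, 13.40 and 13.13 in si-Control and 11.80, 12.03 and 11.92 with re-expression, and fell by 1.36 ± 0.11 (2.56-fold, adjusted p = 3.81e-06). ITGBL1, a secreted protein related to the integrin beta chain, read 6.44, 6.71 and 6.37 against 4.89, 4.91 and 4.92, and was detected on 1 of 3 re-expression arrays. Its measured difference was -1.60 ± 0.18 (adjusted p = 0.00012). ISCA1, which assembles iron-sulphur clusters in mitochondria, read 8.91, 8.83 and 8.66 against 7.57, 7.43 and 7.65, and fell by 1.25 ± 0.13 (adjusted p = 6.53e-05). All 3 genes were also lower in si-EZH2, by -1.28 for VASN, -1.69 for ITGBL1 and -0.82 for ISCA1.

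STAT5B, a transcription factor of cytokine and growth hormone signalling, fell by 1.02 ± 0.11 (adjusted p = 0.000106). The receptor NOTCH2 fell by 0.97 ± 0.15, the nitric oxide receptor subunit GUCY1A1 by 0.96 ± 0.12, the transcription factor OSR2 by 0.93 ± 0.10 and the phosphodiesterase PDE4A by 0.92 ± 0.13. The sodium-calcium exchanger SLC8A1 fell by 0.96 ± 0.16 and the lipid transporter ABCA2 by 0.88 ± 0.16. Those last 2 calls were lost in the section-adjusted fit (adjusted p = 0.117 and 0.174). The other falls among the 20 largest included those of C10orf105 (by 0.99), the mitochondrial magnesium channel MRS2 (by 0.92), INSYN1 (by 0.92), the nucleotidase CANT1 (by 0.89), the ribosomal paralogue RPL22L1 (by 0.88), MAPKAP1, a subunit of mTOR complex 2 (by 0.86), and APCDD1, an inhibitor of Wnt signalling (by 0.84).

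For SOD3, NFIB and SLIT3, the fall with re-expression stood beside a small difference in si-EZH2. SOD3, the extracellular superoxide dismutase, read 8.72, 8.78 and 8.79 in si-Control and 7.91, 7.87 and 7.90 with re-expression, and fell by 0.87 ± 0.10 (adjusted p = 0.000176). Its difference was -0.01 in si-EZH2 (adjusted p = 0.966) and -0.60 in T350A re-expression. The transcription factor NFIB fell by 0.88 ± 0.10, beside -0.30 in si-EZH2 and -0.57 in T350A re-expression. SLIT3, a secreted guidance protein, fell by 0.86 ± 0.10, beside -0.31 and -0.44.

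The 20 largest rises and 20 largest falls were chosen among called genes whose groups did not overlap. All 40 kept their call in each of the 12 fits that left out 1 array, with median scaling and with the authors' normalized values. Of the 20 rises 20, and of the 20 falls 18, were still called in the section-adjusted fit.

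**Figure D3:**
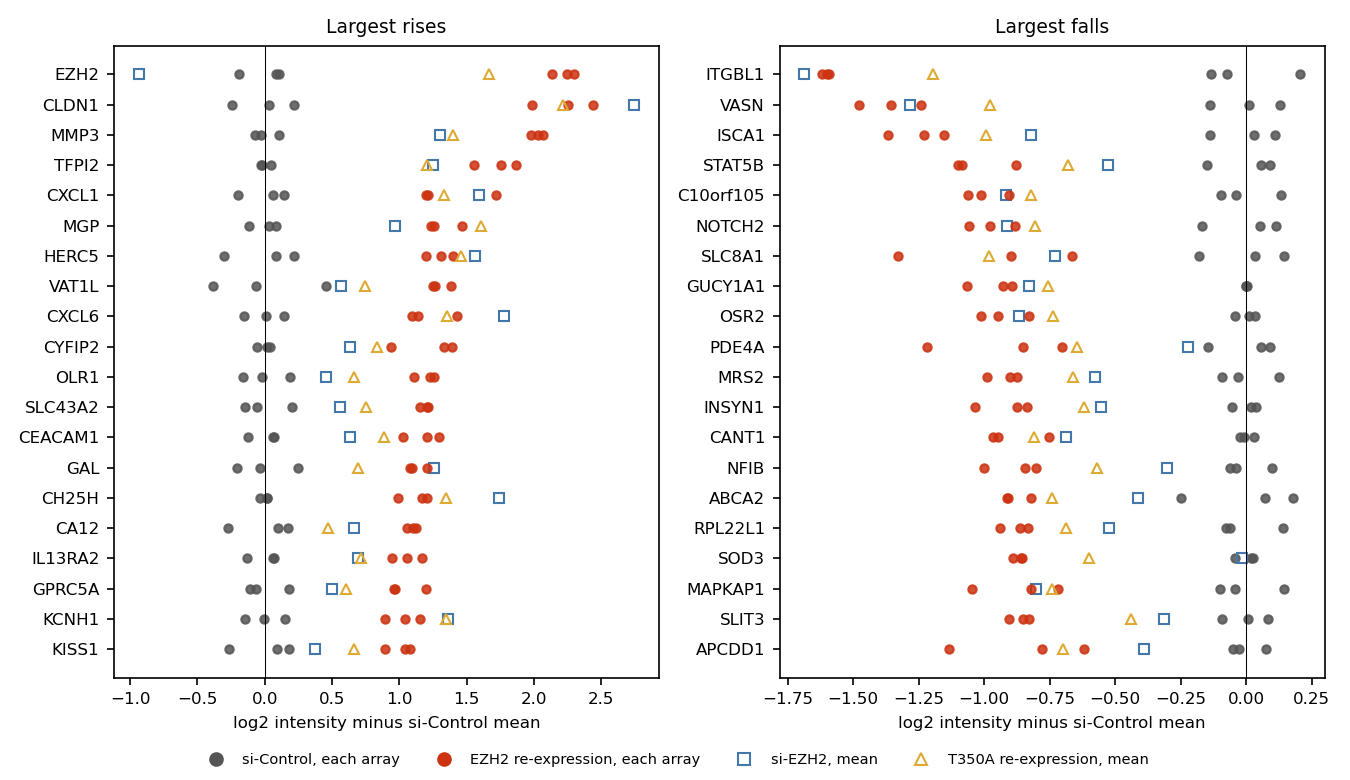
Log2 intensity minus the si-Control mean for the 20 largest rises (left) and 20 largest falls (right). Filled points are the single arrays of si-Control (gray) and EZH2 re-expression (red), which do not overlap in any gene, and open squares and triangles are the means of si-EZH2 and T350A re-expression. SOD3 in si-EZH2 lies at the si-Control level.

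Secreted inflammatory genes, the chemokines, interleukins and proteases that fibroblasts release in inflammation and in senescence, were called higher in many cases. Of 28 tested, 15 rose and 0 fell, against 4.32% and 4.48% of all genes, and 25 of the 28 differences were above 0. The median was 0.47, and on the single re-expression arrays the list lay 0.42 to 0.49 above the si-Control mean. CXCL1, a chemokine that draws neutrophils, read 8.38, 8.31 and 8.04 in si-Control and 9.46, 9.96 and 9.44 with re-expression, a rise of 1.38 ± 0.19 (2.60-fold, adjusted p = 0.000598). CXCL6, of the same family, read 6.96, 7.12 and 7.25 against 8.53, 8.25 and 8.20, a rise of 1.22 ± 0.12 (2.33-fold, adjusted p = 6.53e-05). IL1B, the cytokine interleukin-1 beta, read 9.27, 9.47 and 9.30 against 10.04, 9.95 and 10.06, a rise of 0.67 ± 0.11 (1.60-fold, adjusted p = 0.00181). All re-expression arrays lay above all si-Control arrays in the 3 genes. PLAU, the urokinase that activates plasminogen, rose by 0.80 ± 0.11 (adjusted p = 0.000712). The median of the list was 0.80 in si-EZH2 and 0.58 in T350A re-expression against the same controls, and IL1B differed there by 1.36 and 0.80. The count of 15 was 11 or 12 without any 1 of the 6 arrays and 5 in the section-adjusted fit.

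NF-kappaB is the transcription factor that drives many inflammatory genes, and the promoters of CXCL1 and CXCL6 are shown because both genes were among the largest rises and hold a match to its motif. The windows, from RefSeq on GRCh38.p14, span 250 bases before to 50 after the gene start. They lie on the plus strand at chr4:73869143-73869442 for CXCL1 and chr4:73836428-73836727 for CXCL6, and capitals mark the bases of 2 overlapping matches, 1 on each strand.
CXCL1: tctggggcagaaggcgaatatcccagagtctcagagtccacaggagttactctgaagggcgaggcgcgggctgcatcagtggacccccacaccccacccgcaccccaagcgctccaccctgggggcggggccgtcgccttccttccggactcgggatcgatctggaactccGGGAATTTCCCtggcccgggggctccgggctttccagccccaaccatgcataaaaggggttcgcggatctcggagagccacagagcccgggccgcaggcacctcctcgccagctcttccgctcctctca
CXCL6: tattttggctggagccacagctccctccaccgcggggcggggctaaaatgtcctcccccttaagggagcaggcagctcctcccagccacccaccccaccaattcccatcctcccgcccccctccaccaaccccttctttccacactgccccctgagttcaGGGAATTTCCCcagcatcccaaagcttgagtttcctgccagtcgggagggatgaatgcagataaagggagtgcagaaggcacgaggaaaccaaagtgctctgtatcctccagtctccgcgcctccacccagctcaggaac
The same letters stand in capitals in both windows. Of the 21 genes of the list with a window, 6 held the motif (28.6%), against 918 of 10104 tested genes with a window (9.09%), and among the 12 that were called higher, 3 held it (25%). A match in letters is a description and does not show binding.

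Of 18 regulators and intracellular targets of the NF-kappaB pathway tested, 3 rose (16.7%, against 4.32% of all genes) and 0 fell, with a median of 0.098. IRAK2, a kinase of the interleukin-1 receptor pathway, rose by 0.66 ± 0.13 (adjusted p = 0.00672), a call that was lost in the section-adjusted fit (adjusted p = 0.0847). The count of 3 fell to 1 without si-Control replicate 1 or EZH2 re-expression replicate 3, and to 2 when si-Control replicate 3 or EZH2 re-expression replicate 1 was left out.

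Interferon-stimulated genes, the antiviral genes switched on by interferon, were called higher or not at all. Of 38 tested, 13 rose and 0 fell (34.2%, against 8.80% of all genes), and the median was 0.26. HERC5, the ligase that attaches ISG15 to other proteins, read 6.32, 6.71 and 6.84 in si-Control and 7.93, 8.02 and 7.82 with re-expression, a rise of 1.30 ± 0.13 (2.46-fold, adjusted p = 6.73e-05). EPSTI1, an interferon-induced gene named for epithelial-stromal interaction, read 9.45, 9.35 and 9.54 against 10.22, 10.18 and 10.19, a rise of 0.75 ± 0.091 (1.69-fold, adjusted p = 0.000213). OAS1, which senses double-stranded RNA, read 5.34, 6.10 and 5.73 against 6.74, 6.57 and 6.57, a rise of 0.90 ± 0.16 (adjusted p = 0.00386). The arrays did not overlap in these genes, though si-Control replicate 1 was the lowest in HERC5 and OAS1. IRF7, a transcription factor that amplifies the interferon response, rose by 0.61 ± 0.12 (adjusted p = 0.00567). The median of the list was 0.36 in si-EZH2 and 0.31 in T350A re-expression, and HERC5 differed there by 1.56 and 1.46.

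The count of interferon-stimulated genes rested in part on single arrays: it was 6 without si-Control replicate 1, 11 without replicate 2, 8 without replicate 3 and 9 without any 1 of the EZH2 re-expression arrays. In the section-adjusted fit it was 2, HERC5 and EPSTI1, and OAS1 and IRF7 were not called (adjusted p = 0.0806 and 0.105). The promoters of HERC5 and EPSTI1 are shown because these 2 calls held in the section-adjusted fit and both windows hold the interferon response motif, which is GAAA, any 2 bases and GAAA again, on either strand. HERC5 lies at chr4:88456869-88457168 on the plus strand, with 3 matches of which 2 overlap, and EPSTI1 at chr13:42992192-42992491 on the minus strand, with 1 match. The windows have the same span and source as above, and capitals mark the matches.
HERC5: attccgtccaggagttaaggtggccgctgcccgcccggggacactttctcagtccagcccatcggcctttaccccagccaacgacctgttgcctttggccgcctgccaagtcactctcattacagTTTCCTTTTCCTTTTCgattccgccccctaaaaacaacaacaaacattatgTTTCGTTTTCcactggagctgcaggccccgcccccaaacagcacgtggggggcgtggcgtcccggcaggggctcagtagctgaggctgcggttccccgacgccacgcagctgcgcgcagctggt
EPSTI1: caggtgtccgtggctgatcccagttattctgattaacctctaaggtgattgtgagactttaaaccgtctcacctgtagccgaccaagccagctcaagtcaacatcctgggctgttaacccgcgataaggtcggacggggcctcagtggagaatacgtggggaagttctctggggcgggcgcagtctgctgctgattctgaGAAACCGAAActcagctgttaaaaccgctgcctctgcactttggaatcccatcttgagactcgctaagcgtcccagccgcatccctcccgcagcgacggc
In HERC5 the matches stand on the opposite strand. Of 31 genes of the list with a window, 23 held the motif (74.2%), as did 7 of the 8 that were called higher (87.5%), against 408 of 10104 tested genes (4.04%).

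Genes of antigen presentation, which interferon can also induce, gave no rise that passed the test. Of 15 genes of MHC class I and antigen processing, 0 rose and 2 fell (13.3%, against 8.80% of all genes). The median was 0.061. TAPBP, tapasin, which loads peptides onto class I molecules, read 10.33, 10.47 and 10.21 against 9.62, 9.71 and 9.60, and fell by 0.69 ± 0.10 (adjusted p = 0.000765). ERAP2, a peptidase that trims these peptides, fell by 0.42 (adjusted p = 0.0178). Without si-Control replicate 3, EZH2 re-expression replicate 1 or replicate 2, the count of 2 was 1.

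**Figure D4:**
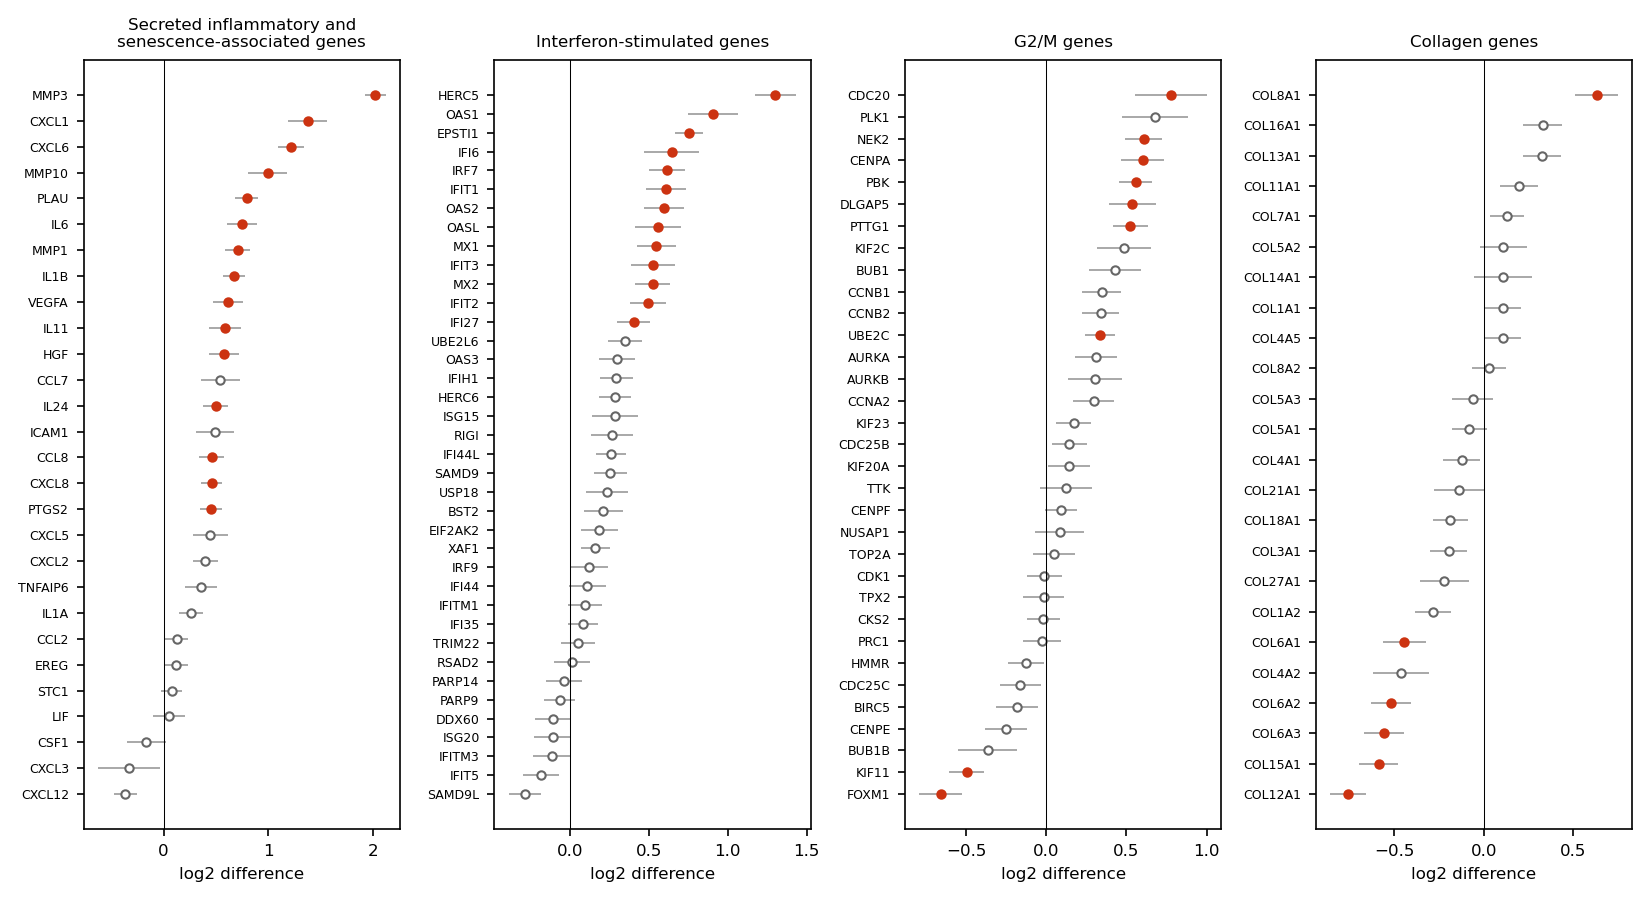
Difference between EZH2 re-expression and si-Control (log2, bars are limma's SE) for every tested member of 4 lists. Filled red points were called, and open points were not. The calls are 15 higher of 28 inflammatory genes, 13 higher of 38 interferon-stimulated genes, 7 higher and 2 lower of 33 G2/M genes, and 1 higher and 5 lower of 24 collagens.

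Genes of the cell cycle gave a mixed picture. Of 33 G2/M genes, which are made before and during mitosis, 7 rose and 2 fell (27.3%, against 8.80% of all genes). The median of the list was 0.14. NEK2, a centrosome kinase, read 5.69, 5.82 and 5.65 in si-Control and 6.22, 6.40 and 6.36 with re-expression, a rise of 0.61 ± 0.12 (adjusted p = 0.00606). PBK, a mitotic kinase, rose by 0.56 ± 0.10 (adjusted p = 0.00525) and PTTG1, securin, by 0.53 ± 0.11 (adjusted p = 0.0106). FOXM1, the transcription factor that drives many G2/M genes, went the other way: it read 7.14, 6.97 and 6.97 against 6.43, 6.52 and 6.16, and fell by 0.66 ± 0.13 (adjusted p = 0.00866). KIF11, the kinesin that separates the spindle poles, fell by 0.50 ± 0.11 (adjusted p = 0.0136). In si-EZH2 the values were -0.04 for NEK2, -0.19 for PBK, -0.22 for PTTG1, -0.96 for FOXM1 and -0.48 for KIF11, and the median of the list was -0.22.

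The rises of G2/M genes were small and few were stable. The count of 7 was 4 without any 1 of the si-Control arrays, 3 without EZH2 re-expression replicate 1 and 4 without replicate 2 or 3. The section-adjusted fit left 1 rise, that of CENPA, and 1 fall, that of KIF11 (adjusted p = 0.0429 and 0.0463). NEK2, PBK, PTTG1 and FOXM1 were not called there (adjusted p from 0.0628 to 0.146). KIF11 lost its call without si-Control replicate 1 or EZH2 re-expression replicate 1 (highest adjusted p 0.0617). TK1, thymidine kinase, an S-phase gene, read 8.14, 8.32 and 8.04 against 8.92, 8.90 and 8.92, a rise of 0.74 ± 0.11 (1.67-fold, adjusted p = 0.00112), and stood at -0.18 in si-EZH2 and 0.09 in T350A re-expression. The share called among 32 genes of DNA replication and S phase was 6.25%, against 8.80% of all genes in either direction. TK1 and CHAF1B (by 0.49, adjusted p = 0.0143) rose and 0 fell, with a median of 0.15 for the list. Without EZH2 re-expression replicate 2 or 3, 1 of them rose, and 3 rose without replicate 1.

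Many G2/M promoters hold the cell cycle genes homology region (CHR), TTTGAA on either strand. The windows of CENPA, the centromeric histone H3 variant, and of KIF11 are shown because both hold 1 match but their changes had opposite signs. CENPA, chosen after its values were seen, read 6.10, 5.77 and 5.94 against 6.68, 6.55 and 6.38, a rise of 0.60 ± 0.14 (adjusted p = 0.0155), and lost its call without si-Control replicate 2 or EZH2 re-expression replicate 1 or 2 (highest adjusted p 0.0664). The windows lie on the plus strand at chr2:26785806-26786105 for CENPA and chr10:92592880-92593179 for KIF11, with capitals on the match.
CENPA: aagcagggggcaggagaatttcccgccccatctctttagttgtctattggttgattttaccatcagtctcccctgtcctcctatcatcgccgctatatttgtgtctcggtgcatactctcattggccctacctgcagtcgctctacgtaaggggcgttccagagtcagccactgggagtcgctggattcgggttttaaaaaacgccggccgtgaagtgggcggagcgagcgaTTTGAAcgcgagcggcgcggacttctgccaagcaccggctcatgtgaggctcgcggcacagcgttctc
KIF11: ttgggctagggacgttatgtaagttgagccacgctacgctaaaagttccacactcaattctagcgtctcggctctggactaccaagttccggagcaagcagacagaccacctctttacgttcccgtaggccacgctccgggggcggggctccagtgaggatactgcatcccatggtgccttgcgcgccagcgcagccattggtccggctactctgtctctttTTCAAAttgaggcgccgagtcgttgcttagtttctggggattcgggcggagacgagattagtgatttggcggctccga
Of 26 G2/M genes with a window, 16 held these letters (61.5%), as did 3 of the 5 called higher (60%), against 1446 of 10104 tested genes (14.3%).

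Some genes that slow the cell cycle also rose. Of 24 targets of p53, the factor that answers DNA damage, 5 rose and 1 fell (25%, against 8.80% of all genes). The median of the list was 0.19. The DNA damage genes GADD45A rose by 0.69 ± 0.12 (adjusted p = 0.00389), DDB2 by 0.60 ± 0.10 (adjusted p = 0.00244) and SESN1 by 0.54 ± 0.094 (adjusted p = 0.00347). The 5 rises were 3 without si-Control replicate 1 or EZH2 re-expression replicate 2, and in the section-adjusted fit 0 were called, with adjusted p of 0.122, 0.0784 and 0.0773 for the 3 genes named. Of 10 CDK inhibitors and senescence markers, 2 rose and 1 fell (30%, against 8.80% of all genes). CDKN2A, whose locus is a textbook target of Polycomb repression, read 5.58, 5.51 and 5.23 in si-Control and 6.26, 6.03 and 5.98 with re-expression, a rise of 0.65 ± 0.12 (1.57-fold, adjusted p = 0.00549). The groups did not overlap, and CDKN2A also stood 0.32 above si-Control in si-EZH2 (adjusted p = 0.191) and 0.74 above it in T350A re-expression. CDKN1C, an imprinted inhibitor, fell by 0.62 ± 0.12 (adjusted p = 0.00695, and 0.114 in the section-adjusted fit). The other rise was that of CDKN1A, p21, by 0.44 (adjusted p = 0.0239). Without si-Control replicate 1 or 3, or any 1 of the EZH2 re-expression arrays, 1 of the 2 rose.

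Among genes that EZH2 is known to repress, calls went both ways. Of 22 genes reported as repressed by EZH2 in other cells, 2 rose (CDKN2A and DACT3) and 3 fell, 22.7% against 8.80% of all genes. The median was 0.0078, with 11 differences on each side of 0. IGFBP3, a binding protein of insulin-like growth factors, read 13.56, 13.15 and 13.10 against 12.60, 12.44 and 12.55, and fell by 0.74 ± 0.12 (1.67-fold, adjusted p = 0.00214). PEBP1, an inhibitor of Raf kinase, read 12.24, 12.05 and 12.17 against 11.65, 11.56 and 11.44, and fell by 0.60 ± 0.10 (adjusted p = 0.0026). The remaining fall was that of CDKN1C. The groups did not overlap in these genes, and IGFBP3 and PEBP1 were not called in the section-adjusted fit (adjusted p = 0.0826 and 0.0652). The 2 rises were 1 without si-Control replicate 1 or 3 or EZH2 re-expression replicate 1. The balance depended on the processing: with median scaling 2 rose and 6 fell, and the median was -0.078, where that of all probes was -0.065. In the section-adjusted fit 1 rose and 0 fell. The median of the list changed sign in 6 of 25 alternatives.

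Developmental transcription factors that PRC2 typically silences were lower more often than higher. Of 32 tested, 0 rose and 5 fell, against 4.48% of all genes, and 25 of the 32 differences were below 0, with a median of -0.13. LHX2, a LIM homeobox factor, read 6.88, 7.15 and 6.88 in si-Control and 6.19, 6.30 and 6.51 with re-expression, and fell by 0.63 ± 0.11 (adjusted p = 0.00371). FOXF2, a forkhead factor of mesenchyme, read 10.38, 10.12 and 10.38 against 9.69, 9.73 and 9.76, and fell by 0.57 ± 0.11 (adjusted p = 0.00679). TBX18 fell by 0.51, TBX2 by 0.47 and IRX5 by 0.36. The count of 5 was 2 without si-Control replicate 1, si-Control replicate 3 or EZH2 re-expression replicate 2, and 3 without EZH2 re-expression replicate 1, and in the section-adjusted fit it was 0. The median was -0.076 in si-EZH2 and -0.089 in T350A re-expression.

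HOXD11 was the 1 called of 13 HOX genes tested (7.69%, against 8.80% of all genes). It rose by 0.39 ± 0.11 (adjusted p = 0.0388). That call was lost in 6 of the 12 fits that left out 1 array (adjusted p from 0.0423 to 0.153) and in the section-adjusted fit (adjusted p = 0.0763). Of 16 subunits of PRC1, the complex that acts beside PRC2, 0 rose and 3 fell (18.8%, against 8.80% of all genes). The median was -0.049. The 3 falls, of CBX7 (by 0.45), PCGF1 (by 0.41) and PCGF2 (by 0.35), were 0 without any 1 of the si-Control arrays or EZH2 re-expression replicate 1, 1 without replicate 2 or 3, and 0 in the section-adjusted fit. Of 12 methyltransferases of H3K4 or H3K36 and demethylases of H3K27, 10 were below 0 and 1 was called (8.33%, against 8.80% of all genes). SETD1A, an H3K4 methyltransferase, was the 1 called and fell by 0.70 ± 0.12 (adjusted p = 0.00272, and 0.0686 in the section-adjusted fit).

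The extracellular matrix changed in both directions. Of 24 collagen genes, 1 rose and 5 fell (25%, against 8.80% of all genes), with a median of -0.10. COL12A1, a collagen associated with fibrils, read 12.32, 12.30 and 12.34 in si-Control and 11.67, 11.42 and 11.59 with re-expression, and fell by 0.76 ± 0.10 (1.69-fold, adjusted p = 0.000492). COL6A3, a chain of the microfibrillar collagen VI, read 14.67, 14.85 and 14.79 against 14.24, 14.17 and 14.22, and fell by 0.56 ± 0.11 (adjusted p = 0.00804). COL15A1, of the basement membrane zone, fell by 0.59 ± 0.11 (adjusted p = 0.00552), COL6A2 by 0.52 (adjusted p = 0.0131), and COL6A1, named after its values were seen, by 0.45 (adjusted p = 0.0381). All 3 collagen VI genes of the list were thus called lower here, but none of them in the section-adjusted fit. COL6A2 also lost its call without si-Control replicate 1 or EZH2 re-expression replicate 2. COL8A1, a short-chain collagen, read 11.17, 11.04 and 11.08 against 11.72, 11.80 and 11.68, a rise of 0.63 ± 0.12 (adjusted p = 0.00544). In si-EZH2, COL12A1 differed by -0.48, COL15A1 by 0.27, COL6A3 by -0.14 and COL8A1 by 0.77, and the median of the list was 0.11. The 5 falls were 3 without si-Control replicate 1 or EZH2 re-expression replicate 2, and 2 collagens rose without si-Control replicate 1. The section-adjusted fit still called COL8A1 and, as the only fall, COL12A1. It did not call COL15A1, COL6A3 and COL6A2 (adjusted p = 0.0885, 0.088 and 0.297), nor COL6A1.

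Other matrix proteins were split as well. Of 35 tested, 3 rose (MGP, EFEMP1 and VCAN) and 4 fell, with a median of 0.042. The share called was 20%, against 8.80% of all genes. FMOD, fibromodulin, which binds collagen fibrils, read 9.19, 9.02 and 9.34 against 8.33, 8.39 and 8.47, and fell by 0.79 ± 0.11 (1.73-fold, adjusted p = 0.000537). PRELP, of the same family of small leucine-rich proteins, read 7.83, 7.86 and 7.71 against 6.95, 7.21 and 7.03, and fell by 0.73 ± 0.10 (1.66-fold, adjusted p = 0.000598). Both stood near the controls in si-EZH2, by -0.06 for FMOD (adjusted p = 0.831) and -0.15 for PRELP (adjusted p = 0.494). HSPG2, the heparan sulphate proteoglycan perlecan, was detected on 3 of 3 si-Control arrays and 0 of 3 re-expression arrays, and was at least 1.36-fold lower (adjusted p = 0.00819). The fourth fall was that of the laminin chain LAMA2, by 0.46 (adjusted p = 0.0164). EFEMP1, fibulin-3, rose by 0.51 ± 0.11 (adjusted p = 0.0111). In the section-adjusted fit FMOD, PRELP and MGP were called, and HSPG2 and EFEMP1 were not (adjusted p = 0.118 and 0.0907).

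Proteases of the matrix rose and fell by member. Of 22 matrix metalloproteases, ADAMs and their inhibitors, 3 rose and 2 fell (22.7%, against 8.80% of all genes). The rises, of MMP3, MMP1 and MMP10, are not separate from those above, since the 3 genes are also members of the secreted inflammatory list. Beside MMP3, the collagenase MMP1 read 11.96, 11.81 and 12.01 against 12.61, 12.44 and 12.85, a rise of 0.71 ± 0.12 (1.63-fold, adjusted p = 0.003). MMP10, stromelysin-2, read 4.81, 5.49 and 5.19 against 6.07, 6.02 and 6.39, a rise of 0.99 ± 0.19 (adjusted p = 0.00581), with 2 of 3 si-Control arrays detecting it. MMP11, stromelysin-3, read 11.24, 11.12 and 11.09 against 10.31, 10.31 and 10.39, and fell by 0.81 ± 0.13 (1.75-fold, adjusted p = 0.00165), and MMP7 fell by 0.69 (adjusted p = 0.0125). The 3 rises were the same count in each fit that left out 1 array, while the 2 falls were 1 without si-Control replicate 3 or EZH2 re-expression replicate 3 and 3 without replicate 1. In the section-adjusted fit, MMP3, MMP11 and MMP7 (adjusted p = 0.0447 for MMP7) were called and MMP1 and MMP10 were not (adjusted p = 0.0929 and 0.122).

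Adhesion receptors moved in opposite directions. Of 17 genes in the integrin list, 3 rose and 3 fell (35.3%, against 8.80% of all genes). ITGA6, a laminin receptor chain, read 5.80, 5.56 and 5.77 against 6.19, 6.25 and 6.52, a rise of 0.61 ± 0.12 (adjusted p = 0.00728). ITGAV, a chain of vitronectin receptors, read 11.36, 11.34 and 11.32 against 10.81, 10.67 and 10.90, and fell by 0.55 ± 0.10 (adjusted p = 0.00637). ITGA3 (by 0.56) and ITGA5 (by 0.49) rose too, and ITGA11 (by 0.52) fell beside ITGBL1. Without si-Control replicate 1 or EZH2 re-expression replicate 2 or 3, 2 rose, and without si-Control replicate 1 or 2 or EZH2 re-expression replicate 1 or 2, 2 fell. In the section-adjusted fit 0 rises and 1 fall, that of ITGBL1, were called. ITGA6, ITGA3, ITGA5 and ITGAV were not called there (adjusted p = 0.123, 0.151, 0.109 and 0.088). Of 17 cell junction genes CLDN1 was the 1 called (5.88%, against 8.80% of all genes), and 13 of the 17 differences were below 0.

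Ligands and receptors of Wnt signalling gave rises that no single array decided. Of 25 pathway genes, 4 rose and 1 fell (20%, against 8.80% of all genes). The 4 rises were called in every fit that left out 1 array. WNT2, a ligand, read 7.24, 7.32 and 7.24 in si-Control and 8.17, 8.25 and 8.28 with re-expression, a rise of 0.97 ± 0.10 (1.95-fold, adjusted p = 6.11e-05). FZD6, a receptor, read 7.06, 6.82 and 7.10 against 7.88, 7.86 and 8.10, a rise of 0.95 ± 0.14 (1.94-fold, adjusted p = 0.00122). The ligand WNT2B rose by 0.70 ± 0.094 (adjusted p = 0.000537) and the receptor FZD4 by 0.52 ± 0.093 (adjusted p = 0.004). TCF7L2, a transcription factor of the pathway, fell by 0.57 (adjusted p = 0.0132), and did not pass without si-Control replicate 3 or EZH2 re-expression replicate 1. WNT2B stood at 0.23 in si-EZH2 and 0.24 in T350A re-expression, whereas WNT2 stood at 0.73 and 0.91. FZD6 was not called in the section-adjusted fit (adjusted p = 0.0742), and the other 3 rises were.

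Of 19 BMP pathway genes, 4 rose and 1 fell (26.3%, against 8.80% of all genes), all by at most 0.52 in size. Without any 1 of the 6 arrays the rises were 1 to 3. Of 12 genes of insulin-like growth factors, 2 rose and 4 fell (50%, against 8.80% of all genes). The falls were those of IGFBP3, IGF2, IGFBP2 and IGFBP4. The 4 falls were 2 without si-Control replicate 1, si-Control replicate 3 or EZH2 re-expression replicate 3, the rises were 0 or 1 in each fit that left out 1 array, and 0 of either were called in the section-adjusted fit. Of 25 growth factors and receptors of fibroblasts, 6 rose and 0 fell (24%, against 8.80% of all genes), with a median of 0.13. FGF7, the keratinocyte growth factor, was detected on 0 of 3 si-Control arrays and 3 of 3 re-expression arrays, and was at least 1.09-fold higher (adjusted p = 0.00711). The 6 rises were 3 without any 1 of the si-Control arrays or EZH2 re-expression replicate 1 or 3, 1 without EZH2 re-expression replicate 2, 4 without si-EZH2 replicate 1 or 3, and 0 in the section-adjusted fit.

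In the tumour necrosis factor superfamily, 5 of 22 genes rose and 2 fell (31.8%, against 8.80% of all genes), with a median of 0.12. TNFRSF21, death receptor 6, rose by 0.62 ± 0.11 (adjusted p = 0.0043) and the ligand TNFSF14 by 0.56 ± 0.10 (adjusted p = 0.00366). LTBR, the lymphotoxin beta receptor, read 11.72, 11.44 and 11.58 against 10.92, 10.89 and 10.99, and fell by 0.65 ± 0.11 (adjusted p = 0.00373). The 5 rises were 3 without si-Control replicate 1, 2 without si-Control replicate 3 or EZH2 re-expression replicate 2 and 3 without EZH2 re-expression replicate 3, and the 2 falls were 1 without si-Control replicate 2 or EZH2 re-expression replicate 2 or 3. None of the 22 was called by limma in the section-adjusted fit (adjusted p from 0.0744 to 0.119 for the 3 named). Among 13 prostaglandin genes 3 rose and 1 fell (30.8%, against 8.80% of all genes). SLCO2A1, the prostaglandin transporter, read 5.53, 5.57 and 5.73 against 6.64, 6.59 and 6.54, a rise of 0.98 ± 0.11 (1.97-fold, adjusted p = 0.000124). PTGFR, the receptor of prostaglandin F, read 8.53, 8.19 and 8.24 against 7.56, 7.52 and 7.74, and fell by 0.72 ± 0.13 (adjusted p = 0.00567, and 0.114 in the section-adjusted fit). Of the 3 prostaglandin rises, 1 was called without si-Control replicate 1, and 2 were called when si-Control replicate 3 or any 1 of the EZH2 re-expression arrays was left out.

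Rises were found among genes that handle metals. Of 15 metallothioneins and zinc transporters, 5 rose and 0 fell (33.3%, against 8.80% of all genes), with a median of 0.15. SLC39A8, a zinc and manganese importer, read 8.48, 8.59 and 8.40 in si-Control and 9.47, 9.44 and 9.52 with re-expression, a rise of 0.99 ± 0.10 (1.99-fold, adjusted p = 8.55e-05). MT1G, a metallothionein, rose by 0.70 ± 0.10 (adjusted p = 0.00121, and 0.0509 in the section-adjusted fit). Metallothionein genes are near-identical copies, and how far their probes are specific was not analysed here. The count of 5 was 2 without si-Control replicate 1 or EZH2 re-expression replicate 3 and 3 without si-Control replicate 3 or EZH2 re-expression replicate 1, and 1 in the section-adjusted fit. SLC39A8 stood at 1.75 in si-EZH2 and 1.06 in T350A re-expression.

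Falls were found among lipid genes. Of 19 genes of fatty acid synthesis and lipid storage, 0 rose and 5 fell (26.3%, against 8.80% of all genes). The median was -0.17. FADS2, a desaturase of polyunsaturated fatty acids, read 8.88, 8.87 and 9.0 against 8.26, 8.01 and 8.14, and fell by 0.78 ± 0.12 (1.71-fold, adjusted p = 0.00204). FADS1, the desaturase that acts after it, read 11.04, 11.15 and 11.05 against 10.67, 10.42 and 10.44, and fell by 0.57 ± 0.11 (adjusted p = 0.00817). FABP3 (by 0.59), SREBF1 (by 0.49) and SCD (by 0.32) fell as well. The count of 5 was 3 without si-Control replicate 1, 2 if si-Control replicate 2 or EZH2 re-expression replicate 2 was left out, 3 for EZH2 re-expression replicate 3, and 0 in the section-adjusted fit. Of 18 cholesterol genes, 22.2% were called, against 8.80% of all genes. LSS, SQLE and DHCR7 fell, by 0.55, 0.52 and 0.35, beside the rise of CH25H. These 3 falls were 0 without si-Control replicate 1, si-Control replicate 3 or EZH2 re-expression replicate 2, and 1 without the other 3 arrays of the comparison, left out singly.

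Among stress and early response genes, calls went both ways. Of 28 hypoxia and glycolysis genes, 4 rose (14.3%, against 4.32% of all genes) and 0 fell, CA12 most, and the count was 1 without si-Control replicate 1, si-Control replicate 3 or EZH2 re-expression replicate 2 and 2 without EZH2 re-expression replicate 1 or 3. Of 25 genes of the unfolded protein and amino acid responses, 2 rose and 0 fell (8%, against 8.80% of all genes in either direction). SLC7A5, a transporter of large neutral amino acids, read 9.98, 10.24 and 10.08 against 10.80, 10.84 and 10.83, a rise of 0.73 ± 0.10 (1.65-fold, adjusted p = 0.000775). SDF2L1, a protein of the endoplasmic reticulum, rose by 0.57 ± 0.12 (adjusted p = 0.00925, and 0.0784 in the section-adjusted fit). FOS, the immediate early transcription factor, read 8.62, 8.55 and 8.80 against 7.94, 7.86 and 7.86, and fell by 0.77 ± 0.13 (1.71-fold, adjusted p = 0.0026). Of the 21 immediate early genes, KLF6 also fell (by 0.35) and DUSP4 rose (by 0.51), so that 14.3% were called in either direction, against 8.80% of all genes, and the median was -0.15 here against 0.18 in si-EZH2. The calls of KLF6 and DUSP4 were each lost in several fits that left out 1 array.

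The remaining lists held up to 4 calls each, against 8.80% of all genes called in either direction. Of 24 respiratory chain genes 0 were called by limma, and of 23 ribosomal protein genes 1 fell. Of 18 histone genes 2 rose and 1 fell (16.7%), of 21 lysosome and autophagy genes 1 rose and 2 fell (14.3%), and of 23 contractile and TGF-beta response genes 3 rose and 1, VASN, fell (17.4%). The rises of the contractile list were 0 or 1 without any 1 of the 6 arrays. The 2 histone rises were 0 without si-Control replicate 1 or 2 or EZH2 re-expression replicate 1 or 2, and 1 without EZH2 re-expression replicate 3. The histone fall was lost with si-Control replicate 1 or 2 or EZH2 re-expression replicate 2 or 3 left out. The 2 lysosome falls were 0 without si-Control replicate 1 or EZH2 re-expression replicate 1 and 1 without EZH2 re-expression replicate 2, and the 1 lysosome rise was 2 without si-Control replicate 3 or si-EZH2 replicate 1 or 3. Of 14 heat shock genes and of 15 genes of the NRF2 response 1 fell each, of 12 genes of the RNA interference pathway 1 rose, and of 10 complement genes and 8 hyaluronan genes 0 were called. The single calls of the ribosomal, heat shock, NRF2 and RNA interference lists were each lost in at least 2 of the fits that left out 1 array.

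**Figure D5:**
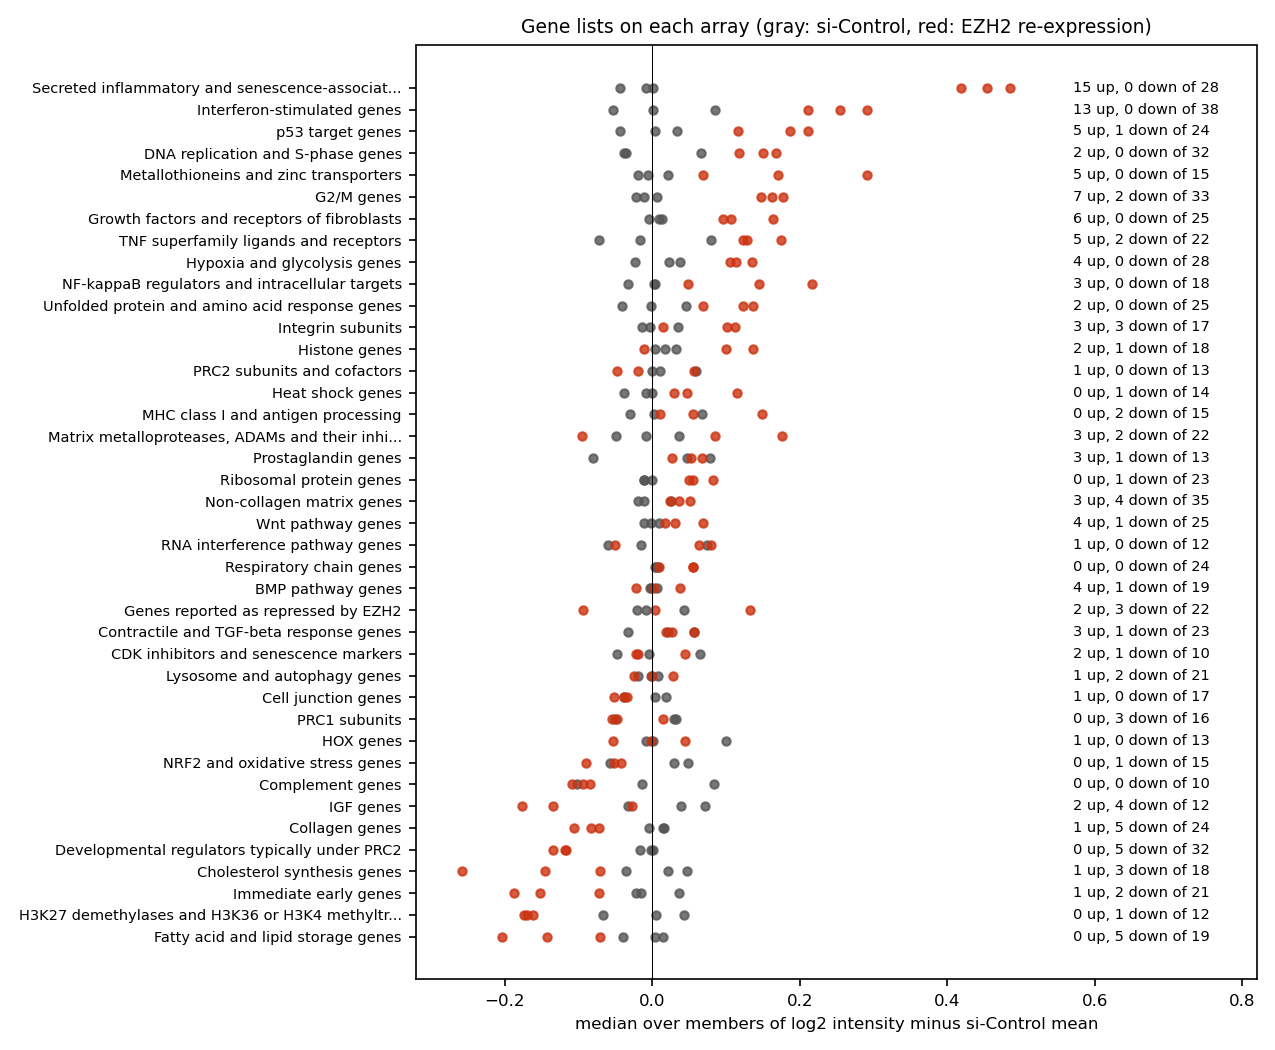
Median over the tested members of each list with at least 10 tested, of log2 intensity minus the si-Control mean of the same gene. Each point is 1 array (gray si-Control, red EZH2 re-expression), and the text at the right counts the called members. The inflammatory list stands farthest to the right, at 0.42 to 0.49, and the interferon-stimulated list lies at 0.21 to 0.29.

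Some transcripts crossed the limit of detection. At a detection p under 0.05, 87 tested probes were detected on all 3 re-expression arrays and no si-Control array, and 55 the other way round. Of these, 21 and 18 were called, where 7.24% of all tested probes were. Probes picked because detection separates the same 6 arrays are called more readily, so these counts are a description. At a detection p under 0.01 the counts were 52 and 52, with 25 and 20 called, so the surplus of gains was not seen there. Beside CEACAM1 and FGF7 the named gains included NOD1, a sensor of bacterial peptidoglycan, at least 1.27-fold higher (adjusted p = 0.0101). Beside HSPG2, the named losses included ZNF704, a zinc finger protein, at least 1.37-fold lower (adjusted p = 0.00784), and OMD, osteomodulin, at least 1.46-fold lower (adjusted p = 0.0312). The call of NOD1 was lost without si-Control replicate 1 (adjusted p = 0.051), that of OMD without any 1 of the 6 arrays (highest adjusted p 0.111), and those of NOD1, OMD and ZNF704 in the section-adjusted fit (adjusted p from 0.115 to 0.128). These bounds are small, since the probes lay close to the detection limit in the brighter group too.

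Where a gene had several probes, they seldom passed together. Of 3493 genes with at least 2 tested probes, 546 had a called probe, 86 had 2 or more called and 66 had all of them called. In 4 genes probes were called in opposite directions: EZH2, HCFC1R1, PTPRF and POFUT1. HCFC1R1, a regulator of the transcriptional cofactor HCFC1, rose by 0.87 ± 0.15 on probe ILMN_2318568 (8.58, 8.30 and 8.15 against 9.27, 9.18 and 9.21, adjusted p = 0.00326). On probe ILMN_1757877 it fell by 0.50 ± 0.11 (12.46, 12.58 and 12.51 against 11.89, 12.09 and 12.05, adjusted p = 0.0146), a call lost without EZH2 re-expression replicate 1 (adjusted p = 0.0651) and in the section-adjusted fit (adjusted p = 0.184). In PTPRF, a receptor tyrosine phosphatase, the 2 probes differed by 0.64 ± 0.11 and -0.46 ± 0.13, and in POFUT1, which adds fucose to Notch receptors, 2 of 3 probes differed by 0.38 and -0.40. The negative call of PTPRF was lost in 10 of the 12 fits that left out 1 array (highest adjusted p 0.172), and the calls of POFUT1 in 7 and 5 of them (highest adjusted p 0.126 and 0.0923). For HCFC1R1, PTPRF and POFUT1 no single direction can be given, and for EZH2 the rise given above is that of 2 of its 3 probes.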

How the data were processed

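Total RNA was labelled as biotinylated cRNA and hybridised to Illumina BeadChips, 12 arrays on 1 chip. The authors deposited a non-normalized table of linear intensity values with, per the file headers, a detection p-value beside each, in steps of 1 in 770, and a table of normalized intensity values whose method is not given in the sources used here. Every column matched 1 sample, leaving 0 unmatched.

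The non-normalized intensities were corrected with normexp from the detection p-values (offset 16), then quantile-normalized to log2 values by neqc (limma 3.58.1, R 4.3.3). Testing took the 23313 of 47231 probes that at least 3 arrays detected at p under 0.05, with 1 mean per group over 12 arrays (8 residual and 7.30 prior degrees of freedom) and 2-sided moderated tests with Benjamini-Hochberg adjustment over all 23313. The median SD within groups was 0.153, and 3 arrays a group limit the precision. Symbols came from the platform's annotation, which can be old: 30113 probes had 1, of which 30074 were updated through Entrez ID to RefSeq symbols, 8 had several and 17110 none. Tested probes with 1 symbol covered 12640 genes, and 1 probe a gene, the brightest, stood for the gene in lists. No probe sequence or genome position was used.

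Named genes were the 20 largest rises and falls among called genes with groups that did not overlap, up to 5 members of each of 48 lists with the smallest adjusted p, PRC2 members, up to 6 genes a direction detected in 1 group only, and genes with opposite probes. A few called list members outside this rule, such as COL6A1, LAMA2, VCAN and CENPA, were named as well, with their values known. The comparison, lists and rules were chosen with earlier results of these data known. The fit was tested on simulated data with 23313 probes for this comparison: among probes given a 1.5-fold change 36 of 67 were called (53.7%), at 2-fold 64 of 67 (95.5%) and at 4-fold 66 of 66. Of 172 calls in all, 6 fell on probes left as they were. The simulation changed few probes, drew noise independently for each probe and held no effect of chip section. Its shares thus need not hold for the real arrays. Promoter windows came from RefSeq (GRCh38.p14) and were present for 10104 tested genes. A gene counted as holding a motif where any of its windows did. Figures were drawn with matplotlib 3.10.9.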

Additional observations from a re-analysis of the deposited data

How the results depend on the processing

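Of 1688 calls, 0 changed sign under any alternative, but their number moved: 2504 with no background correction, 2705 with an offset of 50 (1339 higher, 1366 lower), 2114 with median scaling (499 higher, 1615 lower), 2570 with the authors' values (1392 higher), 2603 with limma-trend and robust moderation (1296 and 1307), 2487 with detection p under 0.01 on all 12 arrays (1287 lower, 15548 probes tested), 491 with a fold of at least 1.5 (252 and 239), and 283 in the section-adjusted fit (153 and 130). Without filter it was 1520, with array weights 2006, with detection on at least 3 of the 6 arrays 1879, and with the 6 arrays alone 1379. Leaving out 1 array gave 829 to 1702 calls, 402 to 850 higher and 427 to 862 lower. With 1 probe a gene tested alone, 1583 genes were called, against 1112. Between si-Control and EZH2 re-expression, deviations from the group mean correlated at -0.036, -0.034 and 0.0088 for same-numbered arrays. For other pairs they correlated at -0.0058 to 0.040. Deviations from a mean of 3 arrays are tied together, so these values cannot decide whether equal numbers shared a culture or day. With the number as a block, 1537 probes were called and 1448 of the 1688 remained. The alternatives were followed for 131 named called probes, without those of EZH2 and of some called genes such as COL6A1 and LAMA2. Of the 131, 94 kept their call in every fit without 1 array and 59 with chip section. Under every alternative that tested them, apart from the fold of at least 1.5, 56 kept it. Among the named genes that were not called, SUZ12 changed sign to -0.070 with chip section and -0.034 without si-Control replicate 1, and EZH1 did so, to 0.040, without si-Control replicate 2. Leaving out 1 array gave SUZ12 -0.034 to 0.155 and EZH1 -0.284 to 0.040. The cause of these shifts was not tested. The 1.37-fold larger SE with chip section follows from the design and is no test of a cause. The dimmest probes were called least, as the shares by intensity show.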

Other observations

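The first principal component of the 12 arrays, computed over the tested probes, held 21.9% of the variance. On it the si-Control arrays lay at -23.6, -16.8 and -20.8 and the EZH2 re-expression arrays at 14.6, 15.7 and 14.9. The si-EZH2 arrays lay between them at -6.43, 1.64 and -5.27, and the T350A re-expression arrays at 8.49, 8.65 and 8.87. The second component held 14.3%, with the si-EZH2 arrays at -19.4, -15.4 and -19.7 and the EZH2 re-expression arrays at 7.61, 7.92 and 7.14, beside si-Control at 10.7, 10.6 and 6.95. No test was made on these positions.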
